A study of Mus musculus with 12 samples.

Results

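Blood of mice given CPI0209 held transcripts of Hsd3b6, Rhbdf1 and Cystm1 that were close to absent from vehicle blood, with pooled levels 16.1, 16.2 and 16.8 times those in vehicle blood. The 3 genes belong to a set of 10 low-count genes, Hsd3b6, Rhbdf1, Col18a1, Epb41l5, Abca5, Cystm1, Ptpn14, Ccdc92b, Serpini1 and Tdrd6, out of 55367 genes in the table. The 10 were picked because their raw counts were few in the vehicle libraries and more numerous in the CPI0209 libraries, with no numerical threshold given for either. Differences between CPI0209 and vehicle are therefore described below and not tested. The counts did not bear out that description for all 10: pooled vehicle counts ran from 3 for Col18a1 to 88 for Ptpn14 and were at most 15 for 6 of the 10, and Serpini1 was not higher in CPI0209 blood as a whole. Tdrd6 was near 0 at one of the collection times.

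RNA came from whole blood of CB17-SCID mice, an immunodeficient strain that lacks mature B and T lymphocytes, and every mouse carried a tumour grown from HT1376, a line of human bladder cancer cells. In the first group vehicle was given for 11 days. In the other groups CPI0209 was given orally, once daily at 35 mpk (mg per kg), also for 11 days, and the 3 of them differ in whether bleeding followed the final dose by 1, 6 or 24 h. Each of the 4 groups had 3 libraries. The labels give neither the age and sex of the mice nor the time at which vehicle mice were bled. They also do not say that the 3 libraries of a group came from separate mice, so the spread between libraries may be partly technical.

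CPI0209 inhibits EZH2, the catalytic subunit of Polycomb repressive complex 2 (PRC2). That complex methylates a lysine of histone H3 at genes that are kept silent in a given cell type, and its loss can allow such genes to be transcribed. Reticulocytes supply part of the RNA in whole blood. These young red cells have lost their nucleus and carry RNA made earlier in the bone marrow. Platelets, neutrophils and monocytes contribute further RNA.

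Library totals ran from 6496573 to 9978215 counts. Levels are CPM, counts scaled to a common library total, on library sizes scaled by TMM, and a ratio of pooled levels is given with its 95% exact binomial interval, which covers counting error only. The summed level of 34 reticulocyte genes was 77994 to 88185 CPM in vehicle blood, 88097 to 102642 CPM at 1 h, 145360 to 164774 CPM at 6 h and 43485 to 126418 CPM at 24 h. Replicate 3 of the 24 h group stood apart from the other libraries of that group, with a mean reticulocyte level of 8.92 log2 CPM against 7.38 and 7.85 in replicates 1 and 2. Summed B cell markers were at 0.215 to 4.11 CPM and summed T cell markers at 2.71 to 14.2 CPM across the 12 libraries, and NK cell markers at 326 to 503 CPM. In bulk blood, fewer cells of a type and less RNA per cell cannot be told apart.

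All 10 are protein-coding genes. RefSeq promoters on GRCm38.p6 were matched for 5 of them, Hsd3b6, Col18a1, Abca5, Ptpn14 and Serpini1, each 300 bases long with 250 before the annotated start. Of these, 4 are shown because they cover both ends of the range in CG dinucleotides, written in capitals, in a gene with high levels after CPI0209 (Hsd3b6), in 2 genes with many CG (Abca5 and Ptpn14) and in the gene that was not higher as a whole (Serpini1). They lie at chr3:98814394-98814693 on the minus strand, chr11:110337667-110337966 on the minus strand, chr1:189728018-189728317 on the plus strand and chr3:75557243-75557542 on the plus strand.
Hsd3b6: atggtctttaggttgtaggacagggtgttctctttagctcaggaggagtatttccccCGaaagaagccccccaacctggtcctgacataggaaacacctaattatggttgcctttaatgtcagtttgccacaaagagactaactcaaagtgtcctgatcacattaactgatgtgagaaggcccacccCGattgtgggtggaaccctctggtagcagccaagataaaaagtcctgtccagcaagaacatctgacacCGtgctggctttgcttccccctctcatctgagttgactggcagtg
Abca5: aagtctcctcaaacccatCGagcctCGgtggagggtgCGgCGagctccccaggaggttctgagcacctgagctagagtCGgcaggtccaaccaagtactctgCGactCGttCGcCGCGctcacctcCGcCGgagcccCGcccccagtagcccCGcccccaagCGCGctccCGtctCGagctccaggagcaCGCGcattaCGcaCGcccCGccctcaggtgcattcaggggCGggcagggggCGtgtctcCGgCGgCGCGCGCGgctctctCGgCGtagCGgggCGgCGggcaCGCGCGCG
Ptpn14: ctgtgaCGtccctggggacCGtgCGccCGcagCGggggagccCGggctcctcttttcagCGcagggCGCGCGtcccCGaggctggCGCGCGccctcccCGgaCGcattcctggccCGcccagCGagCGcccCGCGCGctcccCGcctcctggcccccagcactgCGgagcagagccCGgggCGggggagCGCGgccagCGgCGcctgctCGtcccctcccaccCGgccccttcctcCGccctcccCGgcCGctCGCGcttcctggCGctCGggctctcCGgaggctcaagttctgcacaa
Serpini1: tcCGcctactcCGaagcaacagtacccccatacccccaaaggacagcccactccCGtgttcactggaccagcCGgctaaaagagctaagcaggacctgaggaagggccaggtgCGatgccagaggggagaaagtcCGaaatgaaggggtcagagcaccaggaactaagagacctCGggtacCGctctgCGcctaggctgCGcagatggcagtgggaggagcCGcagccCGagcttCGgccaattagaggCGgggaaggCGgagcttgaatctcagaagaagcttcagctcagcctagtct

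Among 32851 mouse promoters of the same length the median was 7 CG dinucleotides. Hsd3b6 held 3, and 23.3% of promoters had fewer. Abca5 and Ptpn14 held 40 each, with 96.1% of promoters below them, and Serpini1 held 15. The first and second Col18a1 promoters held 16 and 6. Motifs were searched on both strands. GATAA, the core letters bound by GATA factors, occurred once in the Hsd3b6 promoter, starting 30 bases before the annotated start, and in none of the other promoters; 25.4% of all promoters hold it. AGATAAG, which contains GATAA, was in none of the 6, against 3.04% of all promoters. CCACCC was found in Hsd3b6, both Col18a1 promoters and Ptpn14 (31.5% of all promoters), TGTGGT in the second Col18a1 promoter (16.8%) and TATAAA in none (13.6%). CCGCCC occurred 5 times in Abca5 and 3 times each in Ptpn14 and the first Col18a1 promoter, against 35.7% of all promoters with at least 1. These matches describe letters in a window and say nothing of binding.

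**Figure D1:**
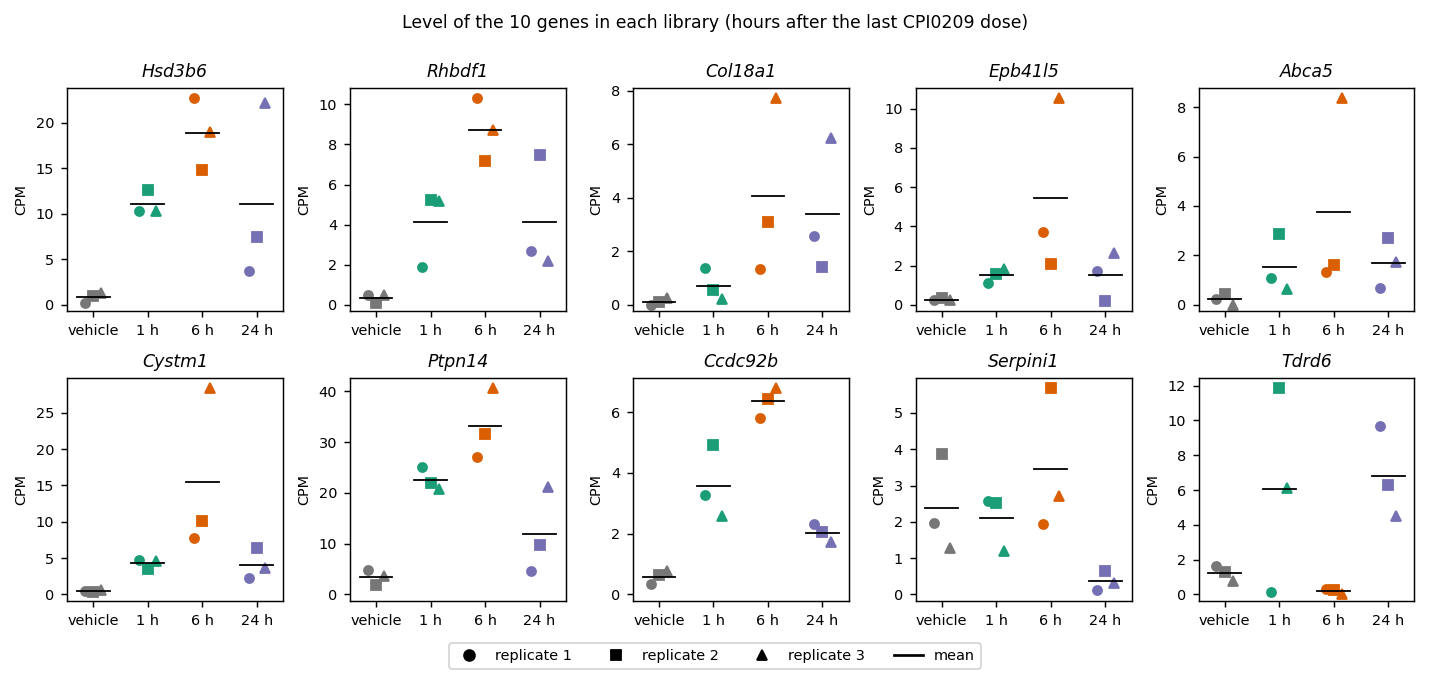
Level of each of the 10 genes in CPM (vertical axis, linear, a scale of its own per gene) in the 12 libraries, grouped as vehicle, 1 h, 6 h and 24 h after the last dose; symbols mark replicates and the bar is the mean of 3. Hsd3b6 sits at 3.73 to 22.7 CPM in every CPI0209 library and at 0.232 to 1.27 CPM in vehicle blood, whereas Tdrd6 lies between 0 and 0.299 CPM at 6 h.

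Hsd3b6 (ENSMUSG00000027869, chr3:98805504-98814443, minus strand, GRCm38) encodes a 3-beta-hydroxysteroid dehydrogenase, an enzyme of steroid hormone synthesis that in mice is known from the adrenal gland and testis. Its level was 0.232, 0.967 and 1.27 CPM in vehicle blood, 10.3, 12.7 and 10.3 CPM at 1 h, 22.7, 14.9 and 19.0 CPM at 6 h, and 3.73, 7.47 and 22.2 CPM at 24 h. Every CPI0209 library was above every vehicle library, and the high 24 h value came from replicate 3. Pooled counts were 21 in vehicle blood, then 283, 420 and 243, which gave ratios to vehicle of 13.7 (8.77 to 22.4) at 1 h, 22.9 (14.8 to 37.3) at 6 h and 12.3 (7.87 to 20.2) at 24 h. Of its 50-base stretches 15.7% also occur in other transcripts, mostly Hsd3b3, so part of its reads could be assigned to a family member. The neighbouring family members stayed near 0: Hsd3b3 had 2 counts in all 12 libraries together, Hsd3b1 had 2, 0, 4 and 3 in vehicle, 1 h, 6 h and 24 h blood, and Hsd3b2 had 4, 6, 0 and 0. Hsd3b7, which acts in bile acid synthesis, was expressed in blood, with a difference of -0.56 log2 units between CPI0209 and vehicle (SE 0.32, edgeR adjusted p 0.601).

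Rhbdf1 (ENSMUSG00000020282, chr11:32209585-32222300, minus strand) encodes iRhom1, an inactive relative of rhomboid proteases that helps the sheddase ADAM17 mature. It was at 0.465, 0.107 and 0.509 CPM in vehicle blood, 1.91, 5.25 and 5.17 CPM at 1 h, 10.3, 7.18 and 8.74 CPM at 6 h, and 2.68, 7.47 and 2.19 CPM at 24 h. All 9 CPI0209 libraries lay above all 3 vehicle libraries, and the 3 libraries at 6 h were above all at 1 h. The pooled ratio to vehicle was 12.2 (6.18 to 27.3) at 1 h, 24.8 (12.8 to 55.0) at 6 h and 12.5 (6.36 to 28.2) at 24 h. Rhbdf2, the related iRhom2 that prevails in blood cells, was at 64.2 ± 9.82 CPM in vehicle blood, 51.3 ± 7.18 CPM at 1 h, 56.4 ± 12.1 CPM at 6 h and 60.4 ± 17.5 CPM at 24 h (SD, n = 3 each), and its difference from vehicle did not pass (-0.20 log2 units, SE 0.18, adjusted p 0.776). Adam17 itself differed by -0.07 (SE 0.13, adjusted p 0.921).

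Rhbdf1 lies beside the alpha-globin genes, in a stretch that is active in red cell precursors. Its nearest neighbours are Snrnp25, a spliceosome gene 600 bases away on the opposite strand, and Nprl3, 3327 bases away on the same strand. Snrnp25 averaged 2.03 CPM in vehicle blood and 3.02, 4.41 and 2.04 CPM at 1, 6 and 24 h (CPI0209 minus vehicle 0.55 log2 units, SE 0.50, adjusted p 0.782), and Nprl3 averaged 16.6 CPM in vehicle blood and 15.7, 22.4 and 18.6 CPM at those times (0.17, SE 0.21, adjusted p 0.872). Neither passed, nor did any other of the 18 tested genes that overlap or neighbour one of the 10 (edgeR; 0 also at an unadjusted p under 0.05, by DESeq2 and by limma-voom). Further along, chosen after their values were seen, Hba-a1 differed by 0.35 (SE 0.26, adjusted p 0.711) and Hba-a2 by 1.91 (SE 0.66, adjusted p 0.279); these near-identical alpha-globin copies share reads, so their split is uncertain.

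Abca5 (ENSMUSG00000018800, chr11:110269369-110337716, minus strand) encodes a lipid-transporter-like protein of lysosomes. It had 0.232, 0.430 and 0 CPM in vehicle blood, 1.09, 2.85 and 0.646 CPM at 1 h, 1.34, 1.61 and 8.36 CPM at 6 h, and 0.699, 2.71 and 1.72 CPM at 24 h. All CPI0209 libraries were above all vehicle libraries, by little in several, and the 6 h mean rested on replicate 3, which was 5.66 times the mean of the other 6 h libraries. Pooled ratios to vehicle were 6.59 (2.77 to 19.1), 16.6 (7.31 to 46.4) and 7.45 (3.15 to 21.4) at 1, 6 and 24 h, on 6 vehicle counts. The neighbouring family member Abca6, 17592 bases away, averaged 4.45 CPM in vehicle blood and 8.46, 1.40 and 6.08 CPM at 1, 6 and 24 h, with its lowest mean at 6 h, where that of Abca5 was highest.

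Cystm1 (ENSMUSG00000046727, chr18:36342520-36403097, plus strand) encodes a small cysteine-rich membrane protein whose function is little known. Its values were 0.465, 0.322 and 0.636 CPM in vehicle blood, 4.77, 3.54 and 4.63 CPM at 1 h, 7.76, 10.1 and 28.4 CPM at 6 h, and 2.33, 6.39 and 3.59 CPM at 24 h. No CPI0209 library overlapped the vehicle libraries. At 6 h replicate 3 was 3.17 times the mean of the others, and the remaining 6 h libraries still exceeded every library of the other times. Pooled ratios to vehicle were 9.22 (5.07 to 18.4) at 1 h, 33.8 (19.1 to 66.1) at 6 h and 9.04 (4.96 to 18.1) at 24 h. Its neighbour Pfdn1, 578 bases away on the opposite strand, had 17 pooled counts in vehicle blood and 35, 30 and 18 at 1, 6 and 24 h (CPI0209 minus vehicle 0.76 log2 units, SE 0.60, adjusted p 0.743).

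Ptpn14 (ENSMUSG00000026604, chr1:189728268-189876695, plus strand) encodes a FERM-domain tyrosine phosphatase that binds the transcriptional coactivator YAP. With 88 pooled vehicle counts it was the best measured of the 10 and not silent: it had 4.88, 1.93 and 3.56 CPM in vehicle blood, 25.2, 21.9 and 20.8 CPM at 1 h, 27.0, 31.7 and 40.7 CPM at 6 h, and 4.66, 9.75 and 21.1 CPM at 24 h. The 1 h and 6 h libraries were all above vehicle, and replicate 1 at 24 h fell within the vehicle range. Its pooled ratios to vehicle of 6.57 (5.24 to 8.32), 9.79 (7.84 to 12.4) and 3.20 (2.51 to 4.12) at 1, 6 and 24 h had the narrowest intervals of the 10 on a log scale. The order of the 24 h libraries matched that of their reticulocyte levels, 7.38, 7.85 and 8.92 log2 CPM. Among the other genes of the 10 only Hsd3b6 had this order. The part of reticulocytes in it was not tested. The related phosphatase Ptpn21 was at 1.24 CPM in vehicle blood and 1.32, 1.26 and 1.48 CPM at 1, 6 and 24 h (CPI0209 minus vehicle 0.12 log2 units, SE 0.60, adjusted p 0.976).

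Epb41l5 (ENSMUSG00000026383, chr1:119545037-119649000, minus strand) encodes a band 4.1 protein with a FERM domain that acts in cell polarity and the shift from epithelial to mesenchymal cells. It had 0.232, 0.322 and 0.254 CPM in vehicle blood, 1.09, 1.60 and 1.83 CPM at 1 h, 3.73, 2.10 and 10.5 CPM at 6 h, and 1.75, 0.217 and 2.66 CPM at 24 h. Replicate 2 at 24 h was below all vehicle libraries, and the other 8 CPI0209 libraries were above them. Replicate 3 at 6 h was 3.61 times the mean of the other 6 h libraries. Pooled ratios were 5.65 (2.50 to 15), 20.2 (9.54 to 51.4) and 5.17 (2.25 to 13.8) on 7 vehicle counts. Its founding family member Epb41, the band 4.1 protein of the red cell membrane, averaged 4635 CPM in vehicle blood and 6344, 8697 and 4150 CPM at 1, 6 and 24 h (CPI0209 minus vehicle 0.40 log2 units, SE 0.24, adjusted p 0.631).

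Col18a1 (ENSMUSG00000001435, chr10:77052178-77166548, minus strand) encodes collagen XVIII, a basement membrane collagen whose cleaved end is endostatin. It was listed at 0, 0.107 and 0.254 CPM in vehicle blood, 1.36, 0.570 and 0.215 CPM at 1 h, 1.34, 3.09 and 7.71 CPM at 6 h, and 2.56, 1.41 and 6.25 CPM at 24 h. The 6 h and 24 h libraries were all above vehicle, and replicate 3 at 1 h overlapped it. On 3 pooled vehicle counts the ratios were 5.75 (1.66 to 30.6) at 1 h, 35.8 (11.9 to 177) at 6 h and 26.6 (8.76 to 132) at 24 h, so the size of the difference is poorly fixed. The folate carrier gene Slc19a1 overlaps it on the opposite strand and no source states whether counting used strand, so reads of the pair may not be separable; Slc19a1 averaged 2.75 CPM in vehicle blood and 3.77, 5.21 and 2.14 CPM at 1, 6 and 24 h. Col15a1, the closest relative, had 15 pooled counts in vehicle blood and 7, 2 and 11 at 1, 6 and 24 h.

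Collagen XVIII and Epb41l5 are known from endothelial and epithelial cells. The summed level of 10 endothelial markers was 163 to 198 CPM in vehicle blood, 185 to 216 CPM at 1 h, 222 to 300 CPM at 6 h and 224 to 284 CPM at 24 h. Pecam1, which platelets and leukocytes also carry, made up most of that sum, followed by Esam with 1965 counts in all libraries together, Kdr with 1014, Plvap with 241, Tie1 with 168, Egfl7 with 154 and Cdh5 with 79. Tek had 17 counts, Emcn 2 and Cldn5 1. Kdr, the receptor for vascular endothelial growth factor, was at 3.87 to 8.14 CPM in vehicle blood and 5.93 to 10.6 CPM at 1 h. It was at 10.3 to 15.1 CPM at 6 h and 8.99 to 22.6 CPM at 24 h. Its 6 h and 24 h libraries were above all vehicle libraries, as were those of 15.8% and 6.34% of genes tested. Egfl7 did not follow, with 1.27 to 2.80 CPM in vehicle blood, 0.743 to 1.64 CPM at 6 h and 0.156 to 1.84 CPM at 24 h. Tie1 overlapped vehicle at both times. The part of endothelial cells in the Col18a1 level was not tested. Of 8 epithelial markers, Krt5, Krt14 and Cldn4 were at 0 throughout, and the list summed to 1.03 to 5.09 CPM across the 12 libraries.

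Ccdc92b (ENSMUSG00000069814, chr11:74619605-74641516, plus strand) encodes a coiled-coil protein. It had 0.349, 0.645 and 0.763 CPM in vehicle blood, 3.27, 4.90 and 2.58 CPM at 1 h, 5.82, 6.44 and 6.81 CPM at 6 h, and 2.33, 2.06 and 1.72 CPM at 24 h. The libraries of each group lay close together, no group overlapped another, and the order was vehicle, 24 h, 1 h, 6 h. Ratios of pooled levels to vehicle were 6.15 (3.54 to 11.4) at 1 h, 11.0 (6.44 to 20.1) at 6 h and 3.55 (1.96 to 6.80) at 24 h.

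Serpini1 (ENSMUSG00000027834, chr3:75557547-75643495, plus strand) encodes neuroserpin, an inhibitor of tissue plasminogen activator best known from neurons. Its values were 1.98, 3.87 and 1.27 CPM in vehicle blood, 2.59, 2.51 and 1.18 CPM at 1 h, 1.94, 5.69 and 2.70 CPM at 6 h, and 0.116, 0.650 and 0.313 CPM at 24 h. The 1 h and 6 h libraries overlapped vehicle, and all 3 libraries at 24 h were below all vehicle libraries, as were those of 5.61% of genes tested. Pooled over all CPI0209 libraries the ratio to vehicle was 0.799 (0.590 to 1.09), and by time it was 0.837 (0.569 to 1.23), 1.45 (1.03 to 2.05) and 0.152 (0.0664 to 0.307). The neighbouring Pdcd10, 690 bases away on the opposite strand, averaged 60.1 CPM in vehicle blood and 55.1, 77.8 and 54.8 CPM at 1, 6 and 24 h (CPI0209 minus vehicle 0.04 log2 units, SE 0.21, adjusted p 0.979). Of 8 neuron markers, Rbfox3, Nefl, Snap25, Syt1 and Tubb3 had at most 2 counts in all libraries together, and nearly all of the list's summed level (9.20 to 46.7 CPM across the 12 libraries) was Gad1.

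Tdrd6 (ENSMUSG00000040140, chr17:43615335-43630299, minus strand) encodes a Tudor-domain protein of the chromatoid body in male germ cells. It had 1.63, 1.29 and 0.763 CPM in vehicle blood, 0.136, 11.9 and 6.14 CPM at 1 h, 0.299, 0.248 and 0 CPM at 6 h, and 9.66, 6.28 and 4.53 CPM at 24 h. The 24 h libraries were all above vehicle, the 6 h libraries were all below it (13.5% of genes tested), and at 1 h replicate 1 was low while the other replicates were high. Pooled counts were 32 in vehicle blood, 162 at 1 h, 4 at 6 h and 170 at 24 h, with ratios to vehicle of 5.14 (3.50 to 7.76), 0.143 (0.0367 to 0.403) and 5.65 (3.86 to 8.52). Of 6 male germ cell markers, Prm1, Prm2, Tnp1 and Acrv1 were at 0 in all 12 libraries, while Sycp1 had 7.45 to 16.9 CPM and Zpbp had 38 counts in all. The list summed to 11.3 to 17.5 CPM in vehicle blood, 13.8 to 15.7 CPM at 1 h, 13.5 to 14.9 CPM at 6 h and 7.45 to 16.7 CPM at 24 h. Replicate 1 at 1 h also stood apart in liver transcripts: Alb, the albumin gene, was at 26.1 CPM there, at most 0.570 CPM in the other CPI0209 libraries and at 0 in all vehicle libraries; its part in the low Tdrd6 value was not tested.

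**Figure D2:**
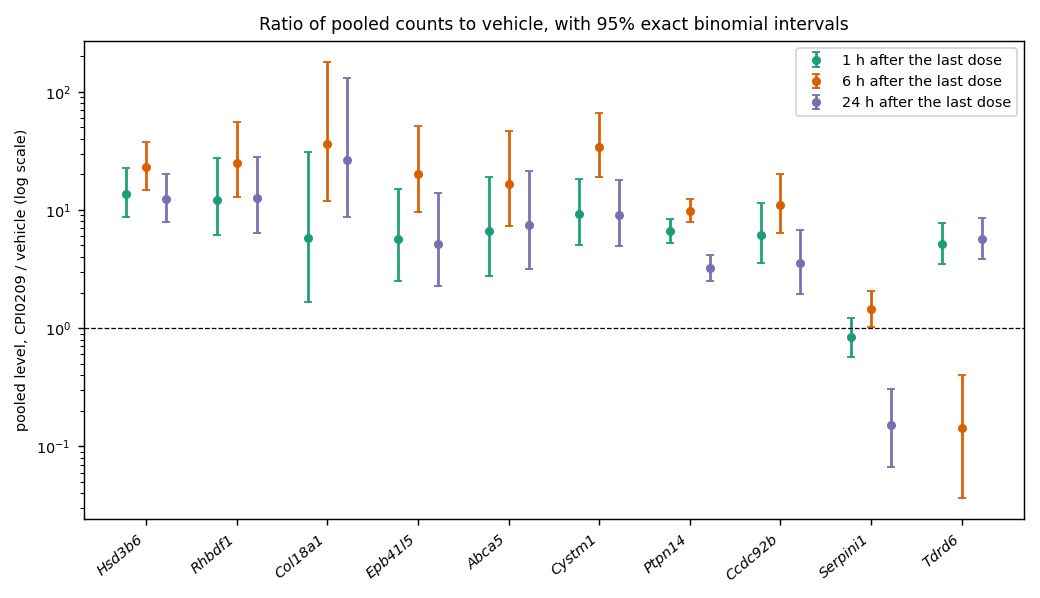
Ratio of the pooled level in CPI0209 blood to that in vehicle blood (vertical axis, log scale) for each gene at 1, 6 and 24 h after the last dose; points are ratios of pooled counts on TMM-scaled library sizes and bars are 95% exact binomial intervals, for counting error only. The dashed line marks no difference; Serpini1 at 24 h (0.152) and Tdrd6 at 6 h (0.143) lie below it, and Col18a1 has the widest intervals.

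Across the set, 7 of 10 genes had all 3 libraries above all vehicle libraries at 1 h, 8 at 6 h and 7 at 24 h, where 8.92%, 15.8% and 6.34% of the 13384 genes tested did so. None of the 10 had all 3 libraries at 1 h below all vehicle libraries (8.44% of genes tested). All 9 CPI0209 libraries were above all vehicle libraries for 5 of 10, Hsd3b6, Rhbdf1, Abca5, Cystm1 and Ccdc92b, against 1.3% of genes tested. Without the 24 h libraries, which lay far apart, it was 7 of 10, against 4.47%; without the 6 h libraries it was 5, against 2.1%. The median difference between the mean of the CPI0209 times and vehicle was 3.09 log2 units over the 10 genes and -0.03 over all genes tested. Since the 10 were picked on this contrast, nothing is read from these counts. All 10 passed the filter on low counts. Per kilobase of annotated exon, the mean level at 6 h was 10.5 CPM for Hsd3b6, 3.62 for Cystm1, 2.47 for Ptpn14, 1.61 for Rhbdf1 and 1.59 for Ccdc92b, and 0.577 or less for the other 5. Rhbdf1 and Ccdc92b did not differ beyond the spread of their libraries.

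The 6 h mean was the highest of the 4 groups for 9 of 10 genes, with Tdrd6 the exception. The share of all genes with a highest 6 h mean was not counted. Since the 10 were picked for more CPI0209 counts, nothing is read from this number. Replicate 3 was the highest 6 h library for 6 of the 10. Its level was 3.17 to 5.66 times the mean of the other 6 h libraries for Col18a1, Epb41l5, Abca5 and Cystm1, and 1.00, 1.01 and 1.11 times for Rhbdf1, Hsd3b6 and Ccdc92b. The reticulocyte level of that library was 9.29 log2 CPM, beside 9.43 and 9.29 in replicates 1 and 2. Without it the 6 h mean of Abca5, 1.48 CPM, was below the 1 h mean of 1.53 CPM and the 24 h mean of 1.71 CPM, and the 6 h mean of Col18a1, 2.22 CPM, was below its 24 h mean of 3.41 CPM.

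**Figure D3:**
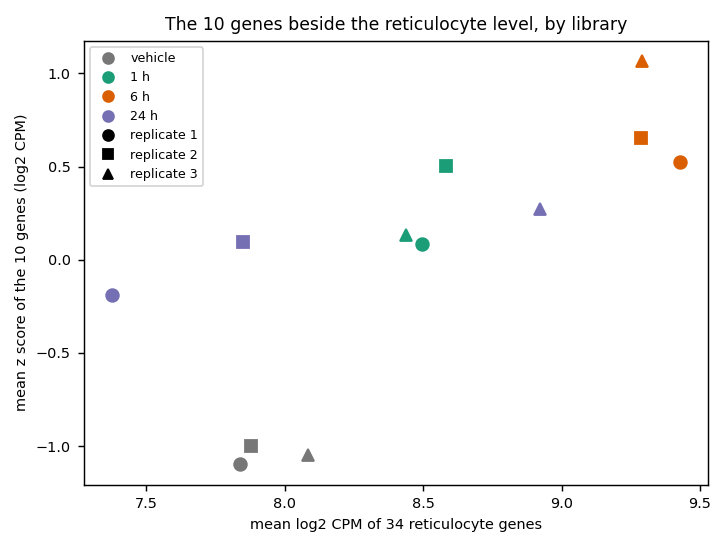
Mean z score of log2 CPM over the 10 genes (vertical axis) against the mean log2 CPM of 34 reticulocyte genes (horizontal axis), 1 point per library, coloured by group and shaped by replicate. Replicates 1 and 2 at 24 h sit at -0.19 and 0.10 with reticulocyte levels of 7.38 and 7.85, and the vehicle libraries sit at -1.10 to -0.997 with levels of 7.84 to 8.08.

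The reticulocyte level and the score of the set were both highest in the 6 h libraries and both higher at 1 h than in vehicle blood. Mean z scores over the 10 genes were -1.10, -0.997 and -1.04 in vehicle blood, 0.08, 0.50 and 0.13 in the 1 h libraries, 0.52, 0.65 and 1.07 in the 6 h libraries, and -0.19, 0.10 and 0.27 in the 24 h libraries. At 24 h, replicates 1 and 2 had reticulocyte levels below or within those of vehicle blood, 7.38 and 7.85 against 7.84, 7.88 and 8.08 log2 CPM, and scores above all vehicle libraries. With the reticulocyte level as a covariate, the fitted difference between the mean of the CPI0209 times and vehicle was 2.72 log2 units for Hsd3b6 in place of 3.99, and 1.65 for Ptpn14 in place of 2.58. For Rhbdf1 it was 4.13 in place of 3.86, and for Cystm1 3.75 in both fits. Col18a1 came to 3.32 in place of 4.01, Abca5 to 2.92 in place of 3.15 and Ccdc92b to 2.71 in place of 2.59. Values of Epb41l5, Serpini1 and Tdrd6 in that fit are not given here. The covariate itself differed between groups, at 7.84 to 8.08 log2 CPM in vehicle blood and 9.29 to 9.43 at 6 h. The 10 genes were also picked on the contrast with vehicle. The part of reticulocytes in their levels was not tested.

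The genes whose level ran most like the mean score of the 10 over the 12 libraries were S100a13 (Pearson r 0.98), Gpd1 (0.98), Runx1t1 (0.97), Rundc3a (0.96) and Scd1 (0.96). Runx1t1, a corepressor of the ETO family, averaged 8.12 CPM in vehicle blood and 44.4, 93.4 and 44.6 CPM at 1, 6 and 24 h. For Tdrd6 the closest were Cds1 (0.91), Ano8 (0.88), Sbf1 (0.86), Zdhhc23 (0.86) and Acvr1b (0.86), and for Serpini1 they were P2ry10 (0.92), Rgs1 (0.89), Pstk (0.87), Ptpn2 (0.86) and Pnrc2 (0.86). These correlations describe 12 libraries in 4 groups, share the libraries and their scaling, and carry no test.

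Collection times were compared directly. These contrasts leave out the vehicle levels, but the CPI0209 counts that also served to pick the genes enter them, and the pattern over the 3 times was already known when the genes were proposed. Tdrd6 had high counts at 1 h and 24 h alone, so its comparison with 6 h is not independent of the choice. Tdrd6 rose and Serpini1 and Ccdc92b fell at 24 h relative to 6 h: 3 of 10 genes passed edgeR's quasi-likelihood test at a Benjamini-Hochberg adjusted p of 0.05, where 1.76% of genes tested did (0.508% higher, 1.25% lower). Because of how the genes were picked, nothing is read from the 3 of 10 beside that share. Tdrd6 averaged 6.83 ± 2.61 CPM at 24 h and 0.182 ± 0.160 CPM at 6 h (SD, n = 3 each), a difference of 5.15 log2 units (SE 1.11, adjusted p 0.0392) that rests on 4 counts at 6 h. Serpini1 averaged 0.360 ± 0.270 CPM at 24 h and 3.44 ± 1.98 CPM at 6 h, a difference of -3.19 log2 units (SE 0.69, adjusted p 0.0400). Ccdc92b averaged 2.04 ± 0.305 CPM at 24 h and 6.36 ± 0.499 CPM at 6 h, a difference of -1.63 log2 units (SE 0.37, adjusted p 0.0428). For all 3 genes the libraries of these groups did not overlap.

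These calls lie close to the threshold. Leaving out 1 library at a time ended the call for Ccdc92b in 10 of 12 cases, for Serpini1 in 11 and for Tdrd6 in 9, while the direction held in all; over all alternatives the adjusted p ran from 0.00369 to 0.575 for Ccdc92b, from 0.000143 to 0.610 for Serpini1 and from 9.68e-13 to 0.559 for Tdrd6. The differences kept their sign with the reticulocyte level as a covariate, at -1.85 for Ccdc92b, -3.29 for Serpini1 and 4.30 for Tdrd6, and none of them passed in that fit.

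The other 7 genes did not pass between 24 h and 6 h. Cystm1 differed by -1.90 log2 units (SE 0.47, adjusted p 0.0529), Epb41l5 by -1.86 (SE 0.69, adjusted p 0.138) and Ptpn14 by -1.51 (SE 0.41, adjusted p 0.0657). Without replicate 3 of the 24 h group, the library with the high reticulocyte level, Cystm1 (-1.82, adjusted p 0.0326), Epb41l5 (-2.48, adjusted p 0.0451), Ptpn14 (-2.20, adjusted p 0.000737) and Hsd3b6 (-1.75, adjusted p 0.00708) passed. Over all genes 2243 were called without that library, against 235 in the fit to all libraries. The median over the 10 genes was -1.32, against 0.04 over all genes tested. The time pattern was known when the genes were picked, so nothing is read from this median.

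Between 6 h and 1 h none of the 10 passed, where 0.493% of genes tested did (0.134% higher, 0.359% lower). The largest differences were those of Tdrd6 (-4.98 log2 units, SE 1.11, adjusted p 0.0631), Col18a1 (2.53, SE 0.81, adjusted p 0.118), Cystm1 (1.84, SE 0.47, adjusted p 0.0811) and Epb41l5 (1.84, SE 0.68, adjusted p 0.157), and 9 of 10 values were positive, with a median of 0.95 against 0.00098 over all genes tested. The genes were picked with the CPI0209 counts and their time pattern known, so nothing is read from the 9 of 10 or from this median. Without replicate 1 of the 1 h group, the library with the liver transcripts, Tdrd6 passed (-5.58, adjusted p 0.00846). It also passed without replicate 1 (adjusted p 0.0243) or replicate 3 (0.0142) of the 24 h group, as did Cystm1 (0.0297 and 0.0258). In a fit to the 1 h and 6 h libraries alone, Cystm1 (0.0211) and Col18a1 (0.0464) passed. Over all genes 1720 were called in that fit and 1285 without replicate 3 of the 24 h group, against 66 in the main fit. At an unadjusted p under 0.05 in the main fit there were 6 of the 10, and DESeq2 called 3 and limma-voom 0. The share of all genes at that unadjusted level was not counted, so nothing is read from these counts of the 10. DESeq2 also called more genes than edgeR over the whole table, as given at the end. Between 24 h and 1 h none passed either, where 0.0224% of genes tested did; the values ran from -2.46 (Serpini1, SE 0.70, adjusted p 0.524) to 2.25 (Col18a1, SE 0.81, adjusted p 0.693), 4 of the 10 had an unadjusted p under 0.05, and DESeq2 and limma-voom called 0. Here too the share of all genes at the unadjusted level was not counted, so nothing is read from the 4 of the 10. Without replicate 3 of the 24 h group Ptpn14 passed (-1.64, adjusted p 0.0361), where 205 genes in all did, against 3 in the main fit.

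**Figure D4:**
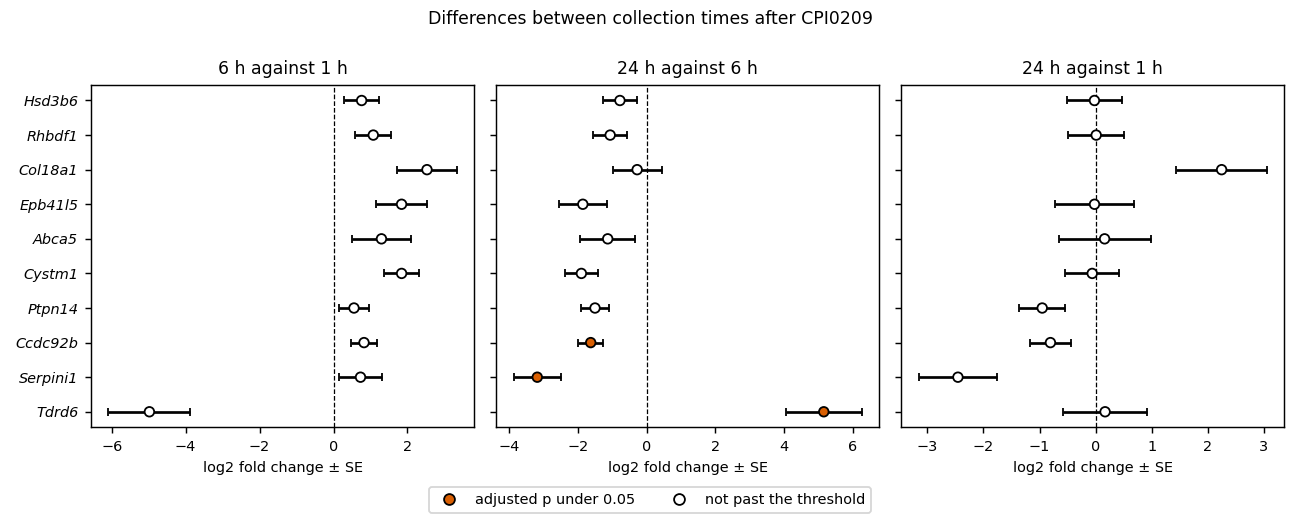
Log2 fold change between collection times for each gene (horizontal axis) with bars of 1 SE, from the edgeR fit to all 12 libraries; filled points have an adjusted p under 0.05. Tdrd6 (5.15), Serpini1 (-3.19) and Ccdc92b (-1.63) are filled at 24 h against 6 h, and no point is filled for the other pairs of times.

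Relatives and partners of the 10 genes were read from lists of their families and pathways, over the contrast of the mean of the CPI0209 times against vehicle, in which 0.934% of genes tested passed in either direction (0.882% higher, 0.0523% lower). Angiomotin (Amot), a scaffold that holds YAP and binds it as Ptpn14 does, was the 1 of 16 tested Hippo pathway genes to pass and was higher by 1.62 log2 units (SE 0.29, adjusted p 0.0151). Tdrd7, another Tudor protein, was the 1 of 4 tested Tudor and piRNA genes to pass: it averaged 55.5 ± 7.37 CPM in vehicle blood and 92.4 ± 14.9, 131 ± 9.58 and 91.7 ± 22 CPM at 1, 6 and 24 h (SD, n = 3 each; CPI0209 minus vehicle 0.90, SE 0.16, adjusted p 0.0167). Frmd4b, a FERM-domain polarity protein, was the 1 of 12 tested band 4.1 and polarity genes to pass (0.66, SE 0.14, adjusted p 0.0416). No gene of these lists passed in the lower direction.

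No gene passed in that contrast among 5 tested genes of steroid synthesis, 11 of iRhom, ADAM17 and its substrates, 7 of the basement membrane, 7 ABCA transporters and 10 PRC2 subunits, by edgeR or limma-voom. Over these 5 lists 0 of 40 genes had an unadjusted p under 0.05, and DESeq2 called 0. The medians of these lists ran from -0.16 to 0.37 log2 units, against -0.03 over all genes tested. Between collection times edgeR called 1 of 72 genes in these 8 lists: Abca9 was higher at 24 h than at 6 h by 1.34 log2 units (SE 0.32, adjusted p 0.0481), where 1.76% of genes tested passed. DESeq2 called 7 of the 72 for 24 h against 6 h, 7 for 6 h against 1 h and 0 for 24 h against 1 h. For these contrasts limma-voom called 3, 0 and 0, and 17, 19 and 4 had an unadjusted edgeR p under 0.05. DESeq2 also called more genes than edgeR over all genes tested, as given at the end. The share of all genes at that unadjusted level was not counted, so nothing is read from these list counts.

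**Figure D5:**
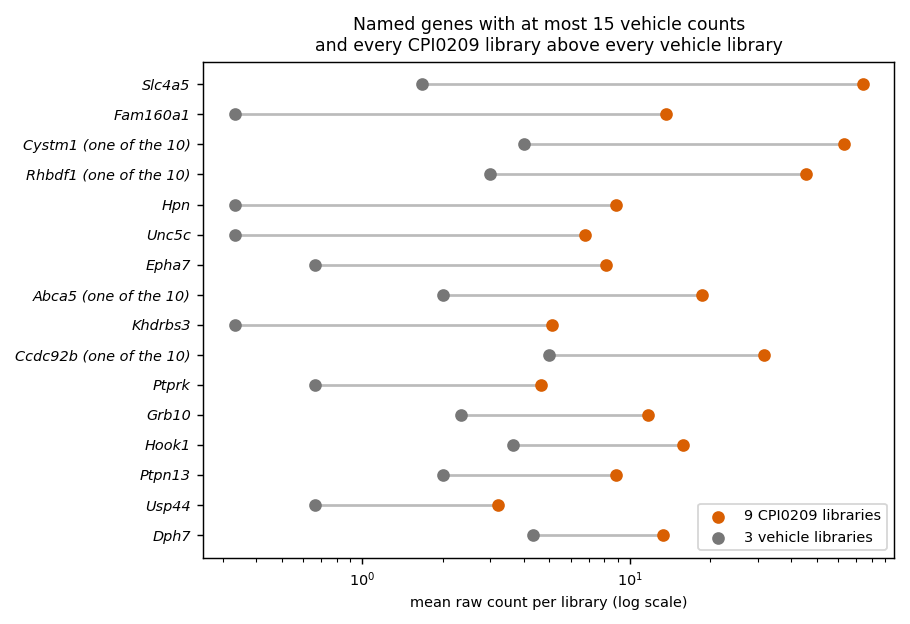
Mean raw count per library in the 9 CPI0209 libraries (orange) and the 3 vehicle libraries (grey) for named genes that had at most 15 pooled vehicle counts and every CPI0209 library above every vehicle library (horizontal axis, log scale, not scaled for depth). Slc4a5, with 669 pooled CPI0209 counts and 5 vehicle counts, lies farthest right and above Cystm1, the first of the 10.

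To place the 10 among genes with the same property, all 10408 genes with at most 15 pooled vehicle counts and at least 1 CPI0209 count were examined. Every CPI0209 library was above every vehicle library for 22 of them, of which 4, Cystm1, Rhbdf1, Abca5 and Ccdc92b, belong to the 10 and 6 have predicted or pseudogene names. The reverse pattern, every vehicle library above every CPI0209 library with at most 45 pooled CPI0209 counts, was met by 29 genes; 9 of these had over 15 vehicle counts, and 20 of the 22 had over 45 CPI0209 counts. A pooled ratio of at least 4 in the pattern's own direction was reached by 19 of the 22 and by 22 of the 29. The highest pooled ratio belonged to Slc4a5, a sodium bicarbonate cotransporter, with 669 CPI0209 counts and 5 vehicle counts. It averaged 0.179 ± 0.310 CPM in vehicle blood and 5.37 ± 0.694, 18.8 ± 7.65 and 4.23 ± 0.658 CPM at 1, 6 and 24 h (SD, n = 3 each), and fell at 24 h relative to 6 h by 2.15 log2 units (SE 0.44, adjusted p 0.0324). With the 10 genes and predicted or pseudogene names left out, the next by ratio were Fam160a1 (123 CPI0209 counts and 1 vehicle count), Hpn, the membrane protease hepsin (80 and 1), Unc5c, a netrin receptor (61 and 1), Epha7, an ephrin receptor (73 and 2), and Khdrbs3, an RNA-binding protein (46 and 1). These genes were selected on the same contrast and are given as a description.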

How the data were processed

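RNA of 12 whole blood libraries was extracted with a PAXgene blood kit, depleted of ribosomal RNA and sequenced paired-end, per the labels' protocols. The authors deposited whole-number counts per gene for 55367 mouse Ensembl identifiers, not scaled to library size. Per the submitters' processing notes RSEM was used; no version is given, and the notes list hg38 although the identifiers are mouse. No source read here names the aligner, annotation release or strand, or says whether estimates were rounded. Positions are from GENCODE M21 on GRCm38, which held 55035 of the identifiers.

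Counts were analysed with edgeR 4.0.16 in R 4.3.3. After filterByExpr, 13384 genes were scaled by TMM and fitted with 4 group means in a quasi-likelihood model. Contrasts set the mean of the CPI0209 groups against vehicle, and the CPI0209 groups against each other, with Benjamini-Hochberg adjustment over 13384 genes and a threshold of 0.05; each adjusted p named without a tool is from this fit, and SE is the log2 fold change over the square root of its F. Log2 CPM used a prior count of 2. Alternatives used DESeq2 1.42.0 and limma 3.58.1, other scalings and filters, a replicate block, a reticulocyte covariate, and each library left out. The scripts were tested on simulated data. No libraries were duplicates. Named genes were all 10 genes, list genes past the threshold or the closest relatives, nearest neighbours, the 5 most alike in pattern, and the low-count genes with the highest ratios. The 10 genes and all lists were chosen with earlier results of these data known. With 3 libraries against 3, an exact permutation test cannot give a two-sided p under 0.1, so none was run. The list of plasminogen activation genes is not reported here.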

Additional observations from a re-analysis of the deposited data

Results flagged for a closer look

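For 3 of the 10 genes edgeR's test of 24 h against 6 h passed. The CPI0209 counts that served to pick the genes enter this contrast, so nothing is read from how many passed. For Tdrd6 the contrast is not independent of the choice. For Ccdc92b the 24 h minus 6 h value was -1.63 log2 units (adjusted p 0.0428), and all 3 libraries at 24 h were below all 3 at 6 h. For Serpini1 it was -3.19 (adjusted p 0.0400), also with 3 of 3 libraries lower. For Tdrd6 it was 5.15 (adjusted p 0.0392), with 3 of 3 libraries higher, on 4 counts at 6 h.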

How the results depend on the processing

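The 3 calls between 24 h and 6 h kept their direction under every alternative and were lost with the reticulocyte covariate and in fits to only those groups, where the adjusted p was 0.194 for Ccdc92b and Serpini1 and 0.114 for Tdrd6. By limma-voom Serpini1 (0.0650) and Tdrd6 (0.212) were lost while Cystm1 (0.0465) and Ptpn14 (0.0197) joined, and with library totals alone Ccdc92b (0.0626). Why calls were lost was not tested. By DESeq2's Wald test Col18a1, Cystm1 and Tdrd6 passed between 6 h and 1 h, and Cystm1 and Ptpn14 joined the 3 called between 24 h and 6 h. Pooled vehicle counts of 15 or fewer limit the ratios to vehicle for 6 of the 10 genes.

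Genes called for the mean of the times against vehicle numbered 125 (118 higher, 7 lower), and 499 with no filter (389 higher), 367 by DESeq2 (324 higher), 308 with the reticulocyte covariate (121 higher, 187 lower) and 14 to 357 leaving out each library in turn, lowest without vehicle replicate 2 and highest without 24 h replicate 1. For 24 h against 6 h they numbered 235 (68 higher, 167 lower), and 2951 with library totals alone (2692 higher, 259 lower), 1477 with no filter, 1125 by DESeq2, 729 by limma-voom (127 higher), 5 with the covariate, 0 with only the groups compared and 0 to 2243 leaving out each library, highest without 24 h replicate 3. For 6 h against 1 h they numbered 66 (18 higher, 48 lower), and 674 with library totals (17 higher, 657 lower), 1227 with no filter (809 higher), 742 by DESeq2 (405 higher), 1 with the covariate, 1720 with only the groups compared (1088 higher) and 4 to 1285 leaving out each library, highest without 24 h replicate 3. For 24 h against 1 h they numbered 3, and 107 with no filter, 27 by DESeq2, 5 by limma-voom and 0 to 205 leaving out each library, highest without 24 h replicate 3.

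Same-numbered libraries did not deviate together (r -0.11 to 0.17 over 18 pairs, 2 above 0.1), and in no case did a library correlate best with its own number in every group. With a replicate block the calls were 144 against vehicle, 418 for 24 h against 6 h, 68 for 6 h against 1 h and 1 for 24 h against 1 h; no call on the 10 genes changed, and Rhbdf1 at 24 h against 1 h came to -0.016.

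Signs turned only where a difference was not called. With the covariate, Hsd3b6 was at 0.39 for 24 h against 1 h, 1.02 for 24 h against 6 h and -0.63 for 6 h against 1 h, Ptpn14 at -0.45 for 6 h against 1 h, Col18a1 at 0.77 for 24 h against 6 h, and for 24 h against 1 h Epb41l5 was at 0.19, Rhbdf1 at -0.20 and Tdrd6 at -0.19. With library totals Col18a1 was at 0.12 for 24 h against 6 h, and Cystm1 at 0.020 and Epb41l5 at 0.00099 for 24 h against 1 h. Rhbdf1 at 24 h against 1 h was at -0.010 with DESeq2's size factors, -0.013 by its Wald test and -0.054 by limma-voom.

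Leaving out each library gave ranges across 0 for Abca5 (-0.38 to 0.99 for 24 h against 1 h, -1.64 to 0.21 for 24 h against 6 h, -0.046 to 2.12 for 6 h against 1 h), for Col18a1 at 24 h against 6 h (-1.04 to 0.58), and at 24 h against 1 h for Cystm1 (-0.56 to 0.21), Epb41l5 (-0.64 to 0.51), Hsd3b6 (-0.98 to 0.38), Rhbdf1 (-0.77 to 0.30) and Tdrd6 (-0.40 to 1.09). Against vehicle, the difference moved by more than the spread between libraries for Hsd3b6 and Ptpn14 with the covariate, as given above. The number of the 10 genes with all CPI0209 libraries above vehicle was 6 with library totals and 5 with DESeq2's size factors; these alternatives, and those without the 6 h or 24 h libraries, were chosen after seeing the data. A fit to only the groups compared is the same as the one reported for the contrast with vehicle.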
